A study of Mus musculus with 6 samples.

Results

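The genes described here are 6 mouse genes used as signs of alternative activation in macrophages: Chil3, Chil1, Cd5l, Arg1, Mgl2 and Retnla. They were taken by symbol from a count table of 17491 genes, and were picked because Chil3 and Cd5l had been seen to be higher with verapamil. Of the 6, 5 have a row and 3, Chil3, Cd5l and Arg1, held enough counts to enter the gene test. Chil1 and Mgl2 did not pass the filter on low counts, and Retnla is not analysed here. The contrast of verapamil with control chose the set, so its values for the members are given as a description, without a p-value.

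The RNA-seq libraries come from cultured osteoblasts that were grown from wildtype bone marrow mesenchymal stem cells of mouse tibia and femur, at day 7 of osteogenic culture. All cultures received dexamethasone, β-glycerophosphate and ascorbic acid in low-glucose DMEM with serum. The 3 control libraries carry no further agent in their labels, and the 3 others are labelled verapamil-treated. Verapamil blocks L-type voltage-gated calcium channels, and the labels state neither its dose nor the length of exposure. No label gives the age or strain of the mice, or whether replicates are from different cultures or mice, so every p-value and SD measures only the spread between these libraries, which may be technical. Marrow plated in this way also holds blood-forming cells, and the labels mention no step that would remove them.

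Alternative activation is the state that macrophages enter under interleukin-4 or interleukin-13, which act through the shared receptor chain IL-4Rα and the transcription factor STAT6. It is known from infections with worms, from allergy and from tissue repair. Chil3 (also called Ym1) and Chil1 encode chitinase-like proteins, secreted relatives of chitinases that bind sugars but do not cut chitin. Cd5l encodes a secreted scavenger receptor cysteine-rich protein of tissue macrophages, also called apoptosis inhibitor of macrophage, which is a known target of the oxysterol receptor LXRα. Arg1 encodes arginase, which turns arginine into ornithine and urea and so competes with nitric oxide synthase. Mgl2 encodes a lectin for galactose-type sugars, and Retnla a small secreted protein of the resistin family. These genes are not bound to macrophages alone, since Chil3 is also made by neutrophils and their precursors and Arg1 by liver.

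Chil3 and Cd5l are the members with more RNA in the verapamil libraries, and their start regions are shown because both moved in the same direction. The sequences are from RefSeq on GRCm38.p6, 5′ to 3′ on the gene's own strand, from 250 bases before the annotated start to 50 bases after it. Promoter entries were matched by symbol for 5 of the 6 members, not for Arg1. Capitals mark matches to the searched letters. For Chil3 the window is chr3:106167515-106167814 on the minus strand, and for Cd5l it is chr3:87357631-87357930 on the plus strand.
Chil3: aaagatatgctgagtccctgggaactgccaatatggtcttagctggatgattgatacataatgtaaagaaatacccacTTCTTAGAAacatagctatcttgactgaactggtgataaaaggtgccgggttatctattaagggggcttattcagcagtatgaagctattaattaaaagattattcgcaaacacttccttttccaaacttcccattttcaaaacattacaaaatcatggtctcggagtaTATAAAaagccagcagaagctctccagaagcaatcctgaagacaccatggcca
Cd5l: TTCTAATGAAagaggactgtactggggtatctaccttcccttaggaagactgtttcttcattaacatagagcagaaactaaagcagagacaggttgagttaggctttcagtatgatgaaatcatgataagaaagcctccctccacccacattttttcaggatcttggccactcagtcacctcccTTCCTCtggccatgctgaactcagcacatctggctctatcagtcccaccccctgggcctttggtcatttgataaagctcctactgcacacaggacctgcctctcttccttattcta
Both strands were searched for the STAT6 palindrome, TTC and GAA with 4 free bases between them, for TTCNNNGAA, bound by STAT proteins more widely, for GAGGAA, a core letter string of the myeloid factor PU.1, for TTGCNNAA (C/EBP), TGANTCA (AP-1), TATAAA (the TATA box) and the LXR direct repeat, AGGTCA given again after 4 free bases. The 2 STAT strings cannot start at the same base. The Chil3 window held TTCTTAGAA from position -172 and TATAAA from position -3 relative to the annotated start. The Cd5l window held TTCTAATGAA from position -250 and the PU.1 core on the opposite strand from position -66. Of 32851 windows of this length in the table, 8.30% hold TTCNNNGAA, 6.95% hold the STAT6 palindrome, 28.3% hold GAGGAA and 13.6% hold TATAAA. None of the searched strings was in the Chil1 window, and Mgl2 had a match to GAGGAA alone. The window of Retnla held the STAT6 palindrome from position -145, the PU.1 core, the C/EBP string and TATAAA. A match describes letters and does not show that a factor binds there.

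A further sequence matters for how far the counts of Chil3 can be trusted, because the gene has a close copy. Chil4 lies beside it on chromosome 3, and the longest open reading frames of both genes were identical at 95.3% of 1197 aligned bases. The first 90 coding bases are shown, with the 2 positions that differ in capitals.
Chil3: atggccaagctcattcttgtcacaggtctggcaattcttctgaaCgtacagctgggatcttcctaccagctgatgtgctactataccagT
Chil4: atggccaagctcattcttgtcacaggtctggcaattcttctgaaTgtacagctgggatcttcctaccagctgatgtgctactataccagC
Of all stretches of 50 bases in the Chil3 transcript, 18.5% occur unchanged in that of Chil4, so reads from these stretches cannot be told apart. The start regions are alike as well, at 92.6% of aligned bases, and the Chil4 window also holds TTCTTAGAA and TATAAA. Chil4 was nearly silent in the table. Its deposited counts were 1.46, 4.03 and 1.67 in the controls and 10.81, 10.52 and 6.74 with verapamil. Set against Chil3, these came to 0.463, 1.59 and 0.492 Chil4 counts per 1000 Chil3 counts in the controls and to 0.723, 0.571 and 0.418 with verapamil. These ratios overlap between the groups, and how reads were shared between the copies is uncertain. Chil3 and Chil1 had no stretch of 50 bases in common, and matched at 60.0% of aligned coding bases.

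Libraries held 18227793 to 21705960 estimated counts. Levels are given in CPM, the usual counts-per-million unit, after TMM scaling, which corrects for library composition, as mean ± SD with n = 3 per group. A log2 fold change sets verapamil against control and is given with a standard error (SE). On the first principal component, which held 66.2% of the variance, the control libraries lay at -25.7, -41.1 and -11.2 and the verapamil libraries between 21.7 and 29.8, so control replicate 2 stood farthest out. As a check of the label, 18 osteoblast genes, all with enough counts for the test, summed to 51500 to 65518 CPM in the controls. They took 30910 to 31455 CPM with verapamil, where 15 of the 18 were called lower. Of 13366 genes tested, edgeR called 15.4% higher and 16.3% lower at an adjusted p under 0.05. With libraries scaled by their totals alone, 63.7% of the called genes were higher, against 48.5% in the reported fit. The genes higher with verapamil numbered 2055, but 1216 when control replicate 1 was left out, and 1027, 1010 and 1232 when verapamil replicate 1, 2 or 3 was. The genes lower with verapamil numbered 2180, but 1222, 1226 and 1393 when verapamil replicate 1, 2 or 3 was left out.

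Chil3 was the most abundant member and the one with the widest distance between the groups. The gene (Entrez 12655) has 11 exons in its longest transcript and lies on the minus strand of chromosome 3, from 106147554 to 106167564 in GRCm38. It stood at 148, 136 and 156 CPM in control replicates 1, 2 and 3, and at 795, 831 and 725 CPM in verapamil replicates 1, 2 and 3. The lowest verapamil value was far above the highest control value, and the libraries of each group lay close together. Of all genes tested, 49.6% had no overlap between the groups, 25.2% with verapamil higher and 24.4% with verapamil lower. Mean levels were 146.5 ± 10.3 and 783 ± 53.9 CPM, a ratio of 5.35, and the log2 fold change was 2.42 ± 0.08 SE. The range over libraries left out in turn was 2.36 to 2.47. Only 4 of the 13366 tested genes had a higher log2 fold change. By mean CPM Chil3 was at rank 1352 of 17491 genes in the controls and at rank 123 with verapamil.

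Cd5l was a much rarer transcript that was also higher with verapamil. The gene (Entrez 11801, 6 exons) is on the plus strand of the same chromosome, from 87357881 to 87371074. Its level was 11.5, 13.3 and 9.28 CPM in control replicates 1, 2 and 3, and 36.2, 31.4 and 44.2 CPM in verapamil replicates 1, 2 and 3. No control library reached the lowest verapamil library. The means were 11.3 ± 2.01 and 37.2 ± 6.47 CPM, which gives a ratio of 3.28 and a log2 fold change of 1.72 ± 0.16 SE (1.57 to 1.84 with libraries left out in turn). Relative spread was wider than for Chil3, with a coefficient of variation of 17.7% among controls and 17.4% with verapamil, against 7.00% and 6.88% for Chil3. Verapamil replicate 3 was the highest library for Cd5l and the lowest of its group for Chil3.

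Arg1 went the other way. The gene (Entrez 11846, 8 exons) lies on chromosome 10, from 24915207 to 24927470. It was at 34.8, 83.0 and 16.5 CPM in control replicates 1, 2 and 3 and at 11.96, 4.47 and 9.12 CPM in verapamil replicates 1, 2 and 3. The groups did not overlap, but control replicate 3 was much closer to verapamil replicate 1 than to control replicate 2. Means were 44.8 ± 34.4 and 8.52 ± 3.78 CPM, and the fitted log2 fold change was -2.40 ± 0.65 SE. Without control replicate 2 it was -1.61, and without control replicate 3 it was -2.80. The coefficient of variation among controls was 76.8%, larger than that of 99.6% of the tested genes. The 3 members tested were all called by edgeR, 2 higher and 1 lower, beside 31.7% of all genes called in either direction, and nothing is read from that count because the set was picked on this contrast. Leaving out control replicate 1, control replicate 2 or a single verapamil replicate ended the call of Arg1, which leaves 2 calls. Chil3 and Cd5l were called in all 14 alternatives, and nothing is read from this either, since both were picked for their rise in these same libraries.

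**Figure D1:**
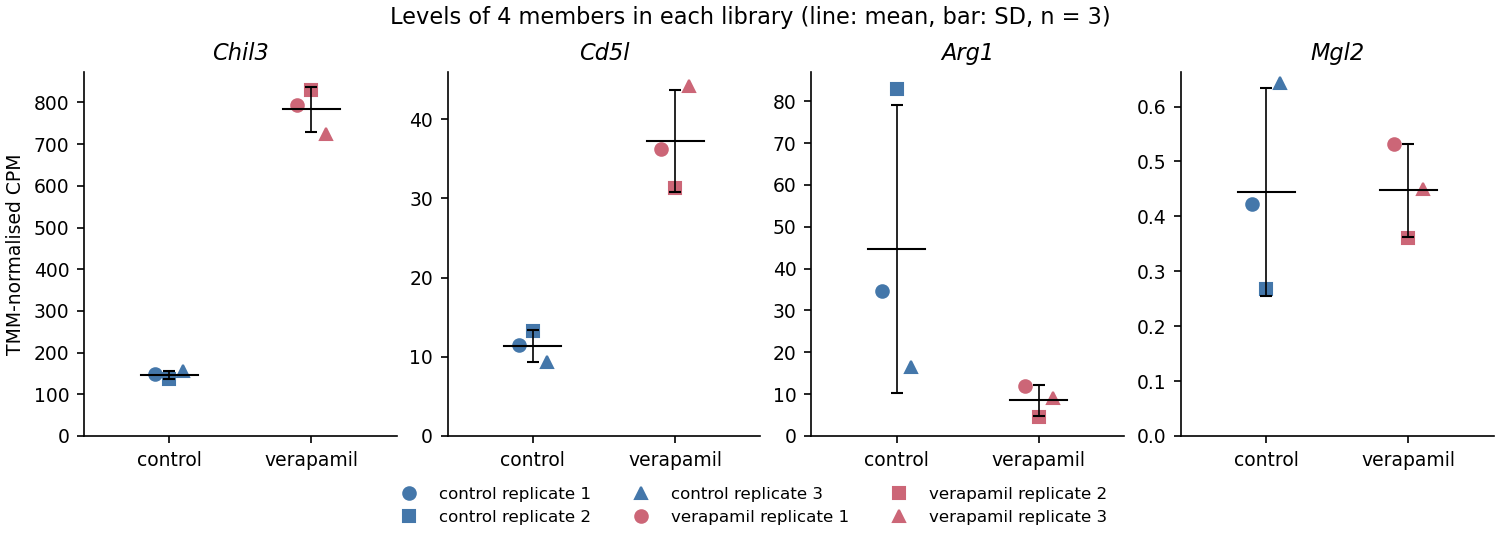
TMM-normalised CPM of Chil3, Cd5l, Arg1 and Mgl2 in the 3 control and 3 verapamil libraries, with points for libraries, a line for the mean and a bar for the SD, each panel on its own axis from 0. Chil3 and Cd5l are higher in every verapamil library than in any control library, Arg1 is lower with 1 control library at 83.0 CPM, and Mgl2 overlaps between the groups.

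Mgl2 and Chil1 were at or near the limit of detection. Mgl2 (Entrez 216864, chromosome 11, 70130125 to 70137542) had deposited counts of 8.80, 5.42 and 14.18 in the controls and 10.03, 7.79 and 10.02 with verapamil. These are 0.444 ± 0.189 and 0.447 ± 0.0854 CPM, and the groups overlap. Like Chil3, Mgl2 has a close relative, the galactose lectin gene Clec10a, and 15.3% of the 50-base stretches of the Mgl2 transcript occur in Clec10a. There were 26.7 to 36.2 Mgl2 counts per 1000 Clec10a counts in the controls and 24.1 to 43.3 with verapamil. Chil1 (Entrez 12654, chromosome 1, 134182156 to 134190031) had 1 count in verapamil replicate 3 and 0 in the other libraries. A count of 0 allows up to 3 counts, which is 0.135 to 0.160 CPM in these libraries and covers counting error only. A difference in Chil1 was not detectable at this depth.

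Levels of different genes can be compared once they are divided by transcript length. On that scale, CPM per kilobase of the longest annotated transcript, the controls had 95.2 ± 6.66 for Chil3, 30.3 ± 23.3 for Arg1, 5.57 ± 0.989 for Cd5l and 0.272 ± 0.116 for Mgl2. With verapamil the levels per kilobase were 509 ± 35.04 for Chil3, 18.3 ± 3.18 for Cd5l, 5.77 ± 2.56 for Arg1 and 0.274 ± 0.0522 for Mgl2. Arg1 and Cd5l thus changed places in the order of levels. In neither group did the per-kilobase values of these 2 genes overlap, at 11.2 to 56.2 for Arg1 and 4.56 to 6.53 for Cd5l in the controls and at 3.02 to 8.10 and 15.4 to 21.7 with verapamil. Mrc1, the mannose receptor of macrophages, was at 238 ± 13.2 and 237 ± 2.35 on this scale, so that Chil3 stood below it in the controls and above it with verapamil.

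Markers of macrophages moved in these libraries too, and their values belong beside those of the members. All 23 markers on the macrophage list were tested, and 18 were called higher, 1 lower (the chemokine receptor gene Cx3cr1) and 4 did not pass. The median log2 fold change was 0.57, against 0.01 over all genes tested, of which 15.4% were called higher and 16.3% lower. Summed over the list, they took 10589 to 13092 CPM in the controls and 19221 to 21722 CPM with verapamil. In bulk RNA, more macrophages and more RNA per macrophage cannot be told apart. All 23 markers had a smaller log2 fold change than Chil3 and than Cd5l, and all 23 a larger one than Arg1. Marco, a resident macrophage marker outside this list, had a larger one (3.10) than both Chil3 and Cd5l. The part of these markers in the members' values was not tested.

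Chil3 was also higher relative to these markers. Per 1000 CPM of the summed markers there were 12.3, 12.8 and 11.9 CPM of Chil3 in control replicates 1, 2 and 3 and 39.2, 38.2 and 37.7 CPM in verapamil replicates 1, 2 and 3. The ratio of the means was 3.11, and 3.68 when the lysozyme gene Lyz2, which dominates the sum, was left out. Per 1000 CPM of Adgre1, which encodes the macrophage antigen F4/80, Chil3 was at 599 ± 11.4 and 2134 ± 13.6 CPM, so the libraries of a group hardly differed in this ratio. Cd5l per 1000 CPM of the summed markers was at 0.955, 1.26 and 0.709 in the controls and 1.78, 1.44 and 2.30 with verapamil, a ratio of means of 1.89, and the groups did not overlap. For Arg1 the same measure was 2.90, 7.84 and 1.26 in the controls and 0.589, 0.206 and 0.474 with verapamil.

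**Figure D2:**
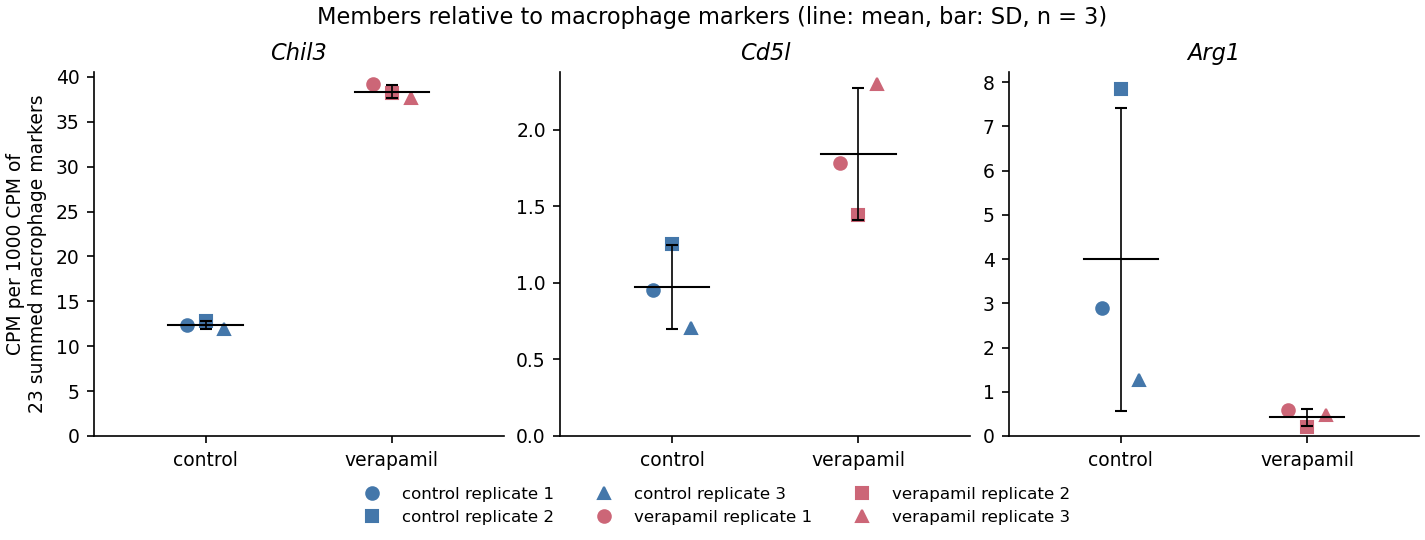
CPM of Chil3, Cd5l and Arg1 per 1000 CPM of 23 summed macrophage markers in each library (points), with the mean as a line and the SD as a bar, n = 3. Chil3 lies near 12.4 in the controls and near 38.4 with verapamil, Cd5l is higher with verapamil by a smaller step, and Arg1 is lower.

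The genes whose pattern over the 6 libraries was most like that of Chil3 were Clec7a, Mmp8, Vipr2, Stra6l and Clec4n. Likeness is the root mean square difference of log2 CPM after each gene was centred on its mean, over 10559 genes averaging 5 CPM or more, and it was 0.309, 0.340, 0.363, 0.379 and 0.402 for these. Clec7a and Clec4n encode lectin receptors for fungal sugars, Mmp8 the collagenase of neutrophils and Vipr2 a receptor for vasoactive intestinal peptide. Clec7a was at 5.87, 3.79 and 5.97 CPM in the controls and 17.9, 22.4 and 18.1 CPM with verapamil. For Cd5l the nearest were Parvg (0.181), Stra6l (0.223), Clec4n (0.245), Gpnmb (0.270) and Mmp8 (0.290). Parvg, a parvin of blood cells that links integrins to actin, was at 4.56, 4.65 and 3.996 CPM in the controls and 14.1, 12.8 and 13.1 CPM with verapamil. Mmp8, Stra6l and Clec4n stood on both lists, each well below Chil3 in level. The genes were chosen for likeness to Chil3 or to Cd5l over these same libraries, so similar values follow from the choice. What the overlap of the lists means was not tested.

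The genes nearest to Arg1 by the same measure were sought after its values had been seen. They were Ndufa4l2 (0.280), Nxph4 (0.320), Slc16a3 (0.333), Ak4 (0.364) and Cox4i2 (0.389). Slc16a3 encodes a lactate exporter, Ak4 an adenylate kinase of mitochondria, and Cox4i2 a subunit of cytochrome oxidase. Ndufa4l2 was at 91.4, 192 and 58.4 CPM in the controls and 25.4, 14.9 and 30.1 CPM with verapamil. Slc16a3 was at 153, 272 and 77.0 CPM in the controls and 35.1, 26.0 and 31.6 CPM with verapamil. Each of the 5 genes was highest in control replicate 2, next in control replicate 1 and lowest of the controls in control replicate 3, as Arg1 was, and each was lowest of all in verapamil replicate 2. The genes were chosen for likeness to Arg1 over these same libraries, so a shared order follows from the choice.

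**Figure D3:**
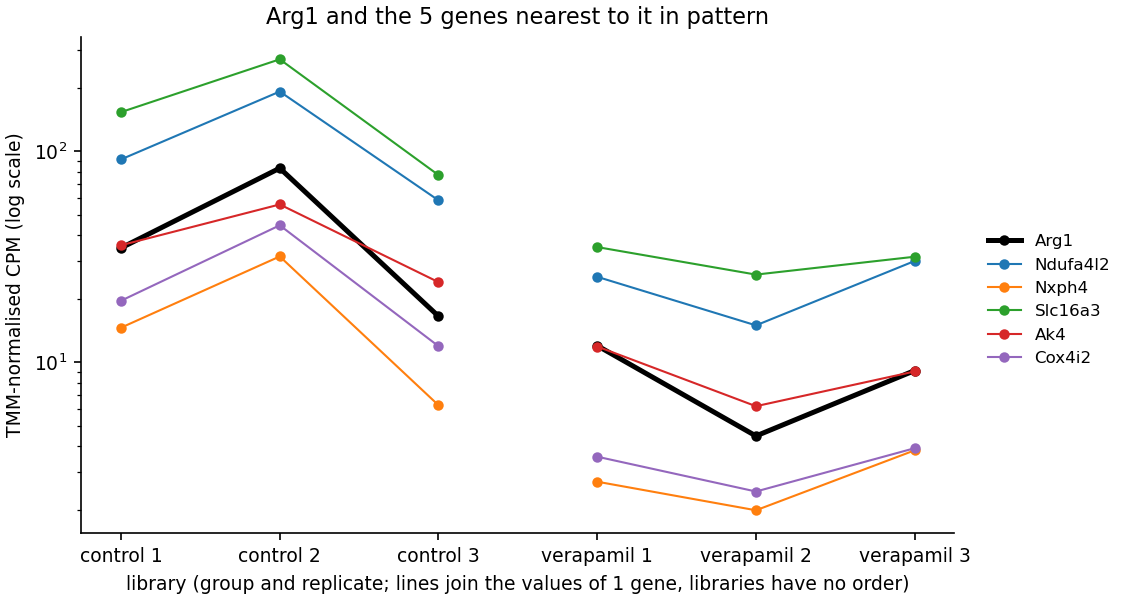
TMM-normalised CPM on a log axis in each library for Arg1 (thick line) and the 5 genes nearest to it in pattern. Control replicate 2 is highest and verapamil replicate 2 lowest for all 6 genes shown, which follows from choosing the genes by their likeness to Arg1.

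Other genes of alternative activation did not rise together. Of 32 on the list beyond the members, 27 have a row and 21 were tested. By the same edgeR test, 3 were higher, 9 lower and 9 did not pass, beside 15.4% higher and 16.3% lower over all genes tested. The median log2 fold change was -0.18 on this list. The counts were 2 to 5 higher and 3 to 10 lower with libraries left out in turn, the fewest lower, 3, without verapamil replicate 2, then 5 when control replicate 1 was left out, and 5 and 4 for verapamil replicates 1 and 3. Without control replicate 2, 5 were higher. Mrc1, a standard marker of this state, was at 1276 ± 70.8 and 1274 ± 12.6 CPM (adjusted p = 0.982). Clec10a did not pass either, at 14.3 ± 3.57 and 12.6 ± 1.86 CPM. Igf1, a growth factor of repair macrophages and of stromal cells, went up from 83.5 ± 20.1 to 185 ± 12.9 CPM (1.15 ± 0.17 SE, adjusted p = 0.00308). The chemokine Ccl24 rose by 1.31 from 0.423 ± 0.123 CPM. Its call ended when control replicate 1 or a single verapamil replicate was left out (adjusted p = 0.0591 to 0.178), and over all libraries with DESeq2 (0.0636) and limma-voom (0.0543). Fcrls, an Fc receptor-like scavenger receptor, was reduced from 18.2 ± 5.51 to 3.72 ± 0.867 CPM (-2.28 ± 0.26 SE, adjusted p = 0.00115). The transcription factor gene Myc fell by 1.07. The scavenger receptor gene Msr1 (0.55), named after its value was seen, was the third that rose. Bulk RNA does not show which cells of the culture made these transcripts, and osteoblast genes had a median of -1.03. The part of osteoblast-lineage cells in the lower values was not tested.

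Among receptor chains for interleukin-4 and interleukin-13, Il4ra and Il13ra1 were lower and Il2rg was higher, and the transcription factor gene Stat6 was not past the test. Il4ra was at 216, 286 and 199 CPM in control replicates 1, 2 and 3 and at 160, 153 and 160 CPM in verapamil replicates 1, 2 and 3. It fell by 0.57 (SE 0.13, adjusted p = 0.0127), and was at adjusted p = 0.0529 without verapamil replicate 2. Il13ra1, the partner chain of the receptor outside lymphocytes, fell from 63.4 ± 8.10 to 37.4 ± 0.563 CPM (-0.76 ± 0.09 SE, adjusted p = 9.04e-04). Il2rg, the common γ chain that pairs with IL-4Rα in blood cells, rose from 21.1 ± 0.299 to 31.04 ± 2.995 CPM (0.56 ± 0.08 SE, adjusted p = 0.00213), and was named after its value was seen. Stat6 was at 167 ± 7.42 and 174 ± 5.23 CPM (0.06 ± 0.06 SE, adjusted p = 0.448). Over all genes tested, 15.4% were higher and 16.3% lower. Of 18 tested genes on this list 3 rose, 7 fell and 8 did not pass, with a median of -0.02. The feedback inhibitor Socs1 (-0.79) and the histone demethylase Kdm6b (-0.68) were among those that fell, and Ptpn6 (0.60), the phosphatase SHP-1 of blood cells, among those that rose. The nuclear receptor gene Pparg (0.33), named after its value was seen, rose too, but did not pass without verapamil replicates 1, 2 or 3 (adjusted p = 0.0758 to 0.0920). The osteoblast-lineage cells of the culture can express receptor genes too, and osteoblast genes had a median of -1.03 in these libraries. Bulk RNA does not show which cells made the receptor transcripts, and the part of osteoblast-lineage cells in these values was not tested. The cytokine genes Il4 and Il13 are not analysed here.

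Genes around Cd5l that are known to control it or to act with it were mostly higher or not past the test. Of 20 regulators, receptors, partners and LXR targets, 19 were tested, and 8 rose, 1 fell and 10 did not pass (median 0.11). Over all genes tested, 15.4% were called higher and 16.3% lower. Nr1h3, which encodes LXRα, rose from 19.1 ± 0.661 to 24.1 ± 1.44 CPM (0.34 ± 0.07 SE), with an adjusted p of 0.0584 without verapamil replicate 2. The CD5L receptor gene Cd36 was at 82.4, 53.3 and 91.5 CPM in control replicates 1, 2 and 3 and at 203, 228 and 190 CPM in verapamil replicates 1, 2 and 3. It rose by 1.45 (SE 0.19, adjusted p = 0.00266), and no libraries of the groups overlapped. The LXR targets Abca1 (0.78), Abcg1 (0.67) and Apoe (0.84) rose, Apoe from 4326 ± 308 to 7729 ± 275 CPM. Fasn, the fatty acid synthase that CD5L is known to bind, was at 167 ± 4.17 and 175 ± 7.29 CPM and did not pass (adjusted p = 0.395). Without control replicate 2, 2 genes of the list were called lower. Macrophage markers, at a median of 0.57, moved with this list, and their part in it was not tested.

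**Figure D4:**
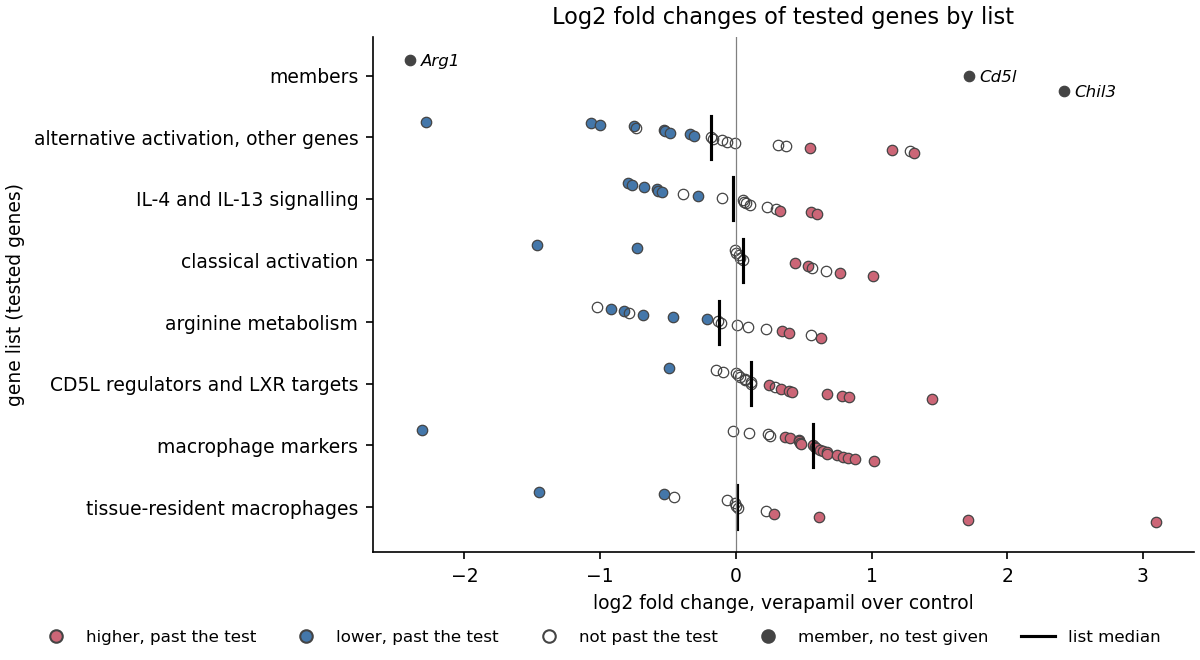
Log2 fold change of verapamil over control for each tested gene (points) by gene list, with red points past the test and higher, blue points past it and lower, open points not past it, and the list median as a black line. The members are dark points without a test or a median. Chil3 and Cd5l lie to the right of all points on the macrophage marker list, but Marco, a tissue-resident macrophage marker, lies right of both. Arg1 lies left of all genes shown, and genes of alternative activation other than the members spread to both sides.

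Arginine can be used by arginase or by nitric oxide synthase, and the rest of that pathway was mixed. Among all genes tested, 15.4% were called higher and 16.3% lower. Of 16 tested genes of arginine metabolism other than Arg1, 3 rose, 5 fell and 8 did not pass, with a median of -0.12. Leaving out control replicate 1 brought the lower calls to 3, leaving out verapamil replicate 1, 2 or 3 to 3, 2 and 3, and 5 rose without control replicate 3. Ass1, which rebuilds arginine from citrulline, went up from 24.5 ± 1.25 to 38.0 ± 1.79 CPM (0.63 ± 0.07 SE, adjusted p = 6.08e-04). The arginine transporter Slc7a1 fell by 0.82, and Pycr1 and Aldh18a1, enzymes of proline synthesis, fell by 0.92 and 0.69. Slc7a1 was at adjusted p = 0.0532 without control replicate 2 and at 0.0519 without verapamil replicate 2, and Aldh18a1 passed only without control replicate 3 when 1 library was left out (adjusted p = 0.0543 to 0.103 otherwise), and did not pass with no low-count filter (0.0655). The inducible synthase gene Nos2 had 5, 16 and 7 deposited counts in the controls and 7, 5 and 7 with verapamil, too few for the test. Arg2, the mitochondrial arginase, was at 0.143 ± 0.119 and 0.218 ± 0.124 CPM. Nearly all arginase RNA in the libraries was that of Arg1.

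Genes of classical activation, the state induced by interferon-γ and bacterial products, went both ways. Of 25 listed for it, 13 were tested, of which 4 rose, 2 fell and 7 did not pass (median 0.05), beside 15.4% higher and 16.3% lower over all genes tested. The interferon-induced chemokine Cxcl9 rose by 1.01 from 2.49 ± 0.454 CPM, and the surface enzyme Cd38 rose from 64.5 ± 1.88 to 110 ± 2.76 CPM (0.76 ± 0.05 SE). Socs3 fell by 0.73. Ptgs2 fell by 1.47, a call that ended when control replicate 1 or 2 or a single verapamil replicate was left out (adjusted p = 0.0873 to 0.142), with limma-voom (0.107) and with no low-count filter (0.0867). Of the other chitinases and chitinase-like genes, only Chid1 and Ctbs were tested, and neither passed. In the resistin and galactose lectin families Clec10a alone was tested.

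Chil3 and Cd5l share chromosome 3 but lie far apart, and each has relatives beside it. Within 300 kb of Chil3, 9 of 11 other protein-coding genes have a row. The chitinase relatives among them, Ovgp1, Chil5, Chia1 and Chil4, held too few counts for the test. Atp5pb, a subunit of ATP synthase, rose by 0.23 (adjusted p = 0.0146), a call that ended when verapamil replicate 2 or 3 was left out (adjusted p = 0.0655 to 0.0743), and Adora3, I830077J02Rik and Wdr77 did not pass. Around Cd5l, the Fc receptor-like genes on either side moved in opposite directions. Fcrl1, the next gene on one side, rose from 0.523 ± 0.304 to 2.72 ± 0.287 CPM (2.35, adjusted p = 0.00160), and Fcrls on the other side fell as given above. The labels do not say whether the counting used strand, so reads running from 1 gene into the next could be counted in both. The more distant neighbours Kirrel and Etv3 did not pass, and Arhgef11 fell by 0.26.

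**Figure D5:**
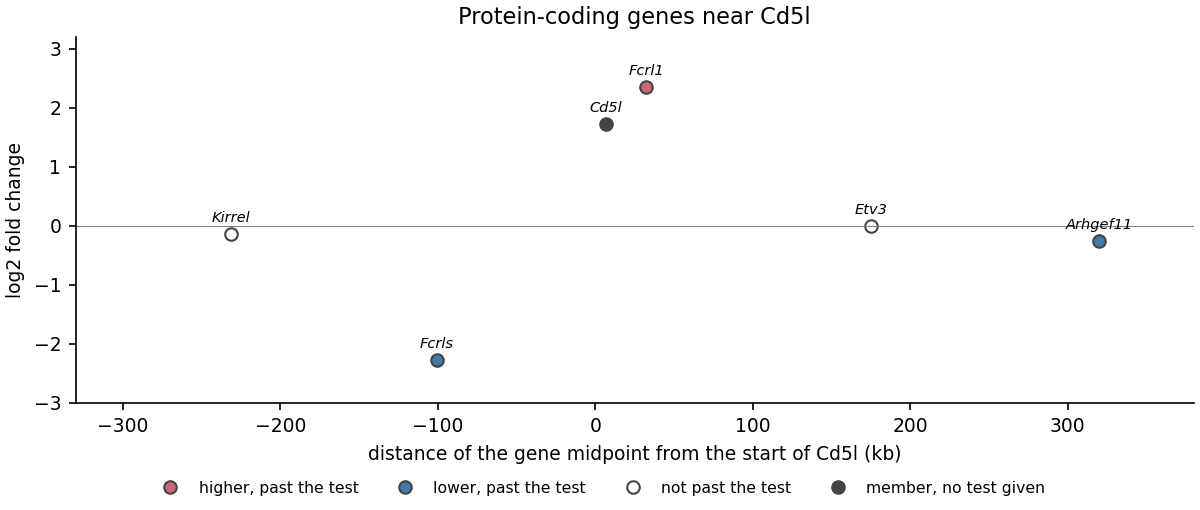
Log2 fold change of verapamil over control for the protein-coding genes within 300 kb of Cd5l that have a row, against the distance of each gene's midpoint from the start of Cd5l in kb. Fcrl1 and Cd5l lie above 2 and 1.5, Fcrls lies below -2, and Kirrel, Etv3 and Arhgef11 lie near 0.

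Since Chil3 and Arg1 are also made by other cells, markers of those cells were read in the same libraries. Neutrophil and granulocyte precursor markers summed to 11.0 to 11.7 CPM over 13 listed genes in the controls and to 21.2 to 24.6 CPM with verapamil. Of 5 tested, 3 rose, namely Mmp8 from 3.30 ± 0.221 to 11.5 ± 1.35 CPM, the colony-stimulating factor receptor Csf3r (0.59) and S100a8 (1.15), and the call of S100a8 ended when control replicate 2 or 3 or a single verapamil replicate was left out (adjusted p = 0.0618 to 0.159), and over all libraries with DESeq2 (0.101), with its size factors in edgeR (0.0502) and with no low-count filter (0.0599). Mmp8 alone gave 3.10 to 3.54 CPM of the sum in the controls and 10.1 to 12.8 CPM with verapamil. The granule genes Elane and Ltf were at 0 counts in all 3 controls, and had at most 2 counts and 1 count in a verapamil library. Other untested genes of the list held more. Camp had 10, 10 and 7 counts in the controls and 7.98, 9 and 10 with verapamil, and Prtn3 1, 4 and 6 against 3, 3 and 5. Lcn2 had 0.99, 2 and 6 against 6, 9 and 6, and Cebpe 1, 0 and 0 against 5, 5 and 2. Eosinophil, basophil and mast cell markers summed to 7.05 to 13.8 CPM, and 0 of 2 tested passed. Kit made up most of these sums, at 6.14 to 12.4 CPM in the controls and 5.44 to 9.11 CPM with verapamil. Mcpt8, the other gene tested, was at 0.864 ± 0.234 and 0.875 ± 0.194 CPM. Of type 2 lymphocyte markers, 0 of 2 tested passed, and the T cell, B cell and natural killer genes Cd3d, Cd79a and Nkg7 had at most 2 counts in a library. Cd4 and Il5, on the same list, were not tested and went opposite ways. Cd4 had 2.99, 3 and 4.99 deposited counts in the controls and 8, 17.98 and 13 with verapamil. Il5 had 3, 1 and 1.94 in the controls and 0 in each verapamil library. Dendritic cell markers had 2 of 5 tested lower (H2-Ab1, -2.003, and Xcr1, -2.17), beside 16.3% of all genes tested. They summed to 14.1 to 35.2 CPM in the controls and 8.03 to 10.2 CPM with verapamil. H2-Ab1 made up most of the control sums, at 14.6, 28.7 and 10.1 CPM in control replicates 1, 2 and 3. H2-Aa, a further H2 gene of the list, was not tested. It had 0 deposited counts in each control and 0, 1 and 0 in verapamil replicates 1, 2 and 3. The sums therefore rest mainly on 1 gene and are not a measure of dendritic cell number. Xcr1 had 14.94, 19.31 and 10.72 deposited counts in the controls and 3.71, 1.09 and 4.73 with verapamil. Of the others tested, H2-Eb1 (0.24) and Itgax (1.29) had positive log2 fold changes and Zbtb46 a negative one, and none passed. H2-Ab1 did not pass without verapamil replicate 2 (adjusted p = 0.0517), and Xcr1 lost its call without either control replicate 1 or verapamil replicate 2 (adjusted p = 0.0526 to 0.0550). The part of these cells in the members' values was not tested.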

How the data were processed

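The authors deposited 1 table of estimated counts per gene for 6 libraries, as their values show: 67.7% are not whole numbers. The build is GRCm38 (mm10), per the submitters' processing notes, and the libraries were made with a SMARTER mRNA-Seq kit, per the labels' protocols. For the aligner, the counting program and its use of strand: not given in the sources used here.

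Counts were rounded to whole numbers and fitted over all genes with edgeR 4.0.16 (R 4.3.3), using the robust quasi-likelihood test, TMM scaling and filterByExpr (at least 10 counts per library of a group, 15 in all). This removed 4125 of 17491 genes. Genes with a Benjamini-Hochberg adjusted p under 0.05 were called, and a standard error is the log2 fold change divided by the square root of F. On simulated counts for the comparison of verapamil with control, over 13366 genes, 73.7% of changes of 1.5-fold and 89.3% of changes of 2-fold were recovered, and 6.6% of calls were false. The simulation changed a far smaller share of genes than the 31.7% called in these libraries, so its rates need not hold for the reported fit. Totals were 18227793 to 21705960 counts, and 1 count was worth 0.0449 to 0.0534 CPM. Intervals and floors cover counting error only.

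The 6 members, the gene lists and the rules were chosen with earlier results of these data known. Named from each list were up to 4 genes past the test with the largest absolute log2 fold change, or up to 2 with the highest mean where none passed, with Nos2, Mrc1, Stat6, Il4ra, Nr1h3, Cd36 and the 5 genes nearest in pattern to Chil3 and to Cd5l. The rule took 64 tested genes, and some of them are not reported here. Other genes (Msr1, Il2rg, Pparg, Fasn, Arg2, the genomic neighbours, those nearest to Arg1, and markers at or near 0) were named after their values were seen. Alternatives were other scalings, other filters, DESeq2 1.42.0, limma-voom (limma 3.58.1), a replicate block and each library left out.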

Additional observations from a re-analysis of the deposited data

How the results depend on the processing

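The log2 fold changes of Chil3, Cd5l and Arg1 kept their direction and stayed within the spread of the replicates in all 14 alternatives. The tested members called were 2 to 3 with 1 library left out, and 2 with limma-voom, with no low-count filter and with the replicate block. Arg1 was not called in any fit with 2 calls. Mgl2 was tested and not called without control replicate 1 or 2 or verapamil replicate 2 or 3, and so were Mgl2 and Chil1 with no low-count filter. Genes called higher were 1010 to 2452 and genes called lower 1222 to 2590 with a library left out. Under the same, lower calls were 3 to 10 for alternative activation and 2 to 6 for arginine metabolism, higher calls were 2 to 5 and 3 to 5, and lower calls on the CD5L and LXR list were 1 to 2. With library totals alone, 5 alternative activation genes were higher, and the median of all genes moved by 0.08 on the log2 scale. When only genes with 5 CPM or more in 3 libraries were tested, 0 macrophage markers were lower, since Cx3cr1 was not tested. For the other moved counts the cause was not tested. The labels number replicates 1 to 3 in both groups, but deviations of same-numbered libraries correlated at 0.01, -0.17 and -0.13, so the numbers were not taken as pairs. A replicate block gave 1364 genes higher and 1589 lower, and 3 arginine metabolism genes lower, and Ccl24, S100a8, Aldh18a1 and Atp5pb did not pass under it (adjusted p = 0.0523, 0.0533, 0.0624 and 0.0659). At this depth, 3 counts are 0.135 to 0.160 CPM, which limits what can be said of Chil1 and Mgl2.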

Other observations

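Markers of resident macrophages and of monocytes did not move as one. Of 12 tested resident markers 4 were called higher and 2 lower, beside 15.4% and 16.3% of all genes tested. The median log2 fold change of these markers was 0.01. Marco, a scavenger receptor of marginal zone and lung macrophages, rose by 3.10 and the iron exporter gene Slc40a1 by 1.71. The heme oxygenase gene Hmox1 rose by 0.62, and the hyaluronan receptor gene Lyve1 fell by 1.45. Of 10 tested monocyte markers 3 were higher and 4 lower, with a median of -0.06. The chemokine receptor gene Ccr2 fell by 1.85.

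Osteoclast markers, another product of the macrophage lineage, summed to 408 to 431 CPM in the controls and 387 to 412 CPM with verapamil, with 2 higher and 3 lower of 7 tested. Chondrocyte markers had 6 lower of 8 tested (median -0.84), and adipocyte markers 2 higher and 1 lower of 6 tested (median 0.31).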
